A study of Mus musculus with 15 samples.

Results

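The genes described here are all 37 genes of the mouse mitochondrial genome (chromosome MT), out of 55487 genes in the count tables. They were taken by chromosome name alone and comprise 13 messenger RNA genes for proteins of the respiratory chain, 2 ribosomal RNA genes and 22 transfer RNA genes. RNA was sequenced from the midline free wall of the heart left ventricle of male mice aged 225 days, in 7 mice with chronic kidney disease and 8 wild-type littermates housed with them on normal chow. The diseased mice carried a mutation of Col4a5, a type IV collagen chain of the kidney filter, which the labels call both a knockdown and a knockout; the sources used here do not give its construct or the mouse strain. The same labels put the diseased mice at a stage equivalent to late human chronic kidney disease, and they name isoflurane in the sample titles but ketamine with xylazine in the protocol as the anaesthetic for both groups. Every library was prepared from total RNA by KAPA RiboErase, in which ribosomal RNA is depleted and polyadenylated RNA is not selected.

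Mitochondrial DNA is a small circle that is transcribed from both strands into long precursor RNAs. Transfer RNAs lie between most of the other genes, and cutting them out releases the messenger and ribosomal RNAs. The proteins are core subunits of complex I (NADH dehydrogenase), complex III (cytochrome bc1), complex IV (cytochrome c oxidase) and complex V (ATP synthase), whose remaining subunits are encoded in the nucleus. Heart muscle is rich in mitochondria, and their transcripts make up a large part of its messenger RNA. Pieces of mitochondrial DNA have also been inserted into nuclear chromosomes during evolution, and the annotation lists some of them as pseudogenes.

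Several of the mitochondrial genes could not be told apart from such nuclear copies by sequence, so the sequences are shown before the values. Each mitochondrial gene was cut into every run of 50 bases, and each run was looked for in all annotated nuclear transcripts (GENCODE M21, build GRCm38). The share of runs also found in a nuclear transcript was 100% for mt-Co2, 99.9% for mt-Co3, 99.5% for mt-Atp6, 98.8% for mt-Nd4l and 98.0% for mt-Nd3. It was 62.2% for mt-Nd4, 51.1% for mt-Co1, 8.19% for mt-Nd2, 7.61% for mt-Nd5 and 1.04% for mt-Rnr2. No run of mt-Nd1, mt-Nd6, mt-Cytb, mt-Atp8, mt-Rnr1 or any transfer RNA gene was found in an annotated nuclear transcript. In all, 15 nuclear genes held at least 1 shared run.

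A block of chromosome 1 (24611535 to 24616197, minus strand) carries 7 of these pseudogenes in the order of the mitochondrial genes, and the block spans 4663 bases against 4662 bases on chromosome MT. The spacing between neighbours was the same on both, for example 233 bases between the copies of mt-Co2 and mt-Atp6 as between the genes themselves, except for 74 bases against 73 between the copies of mt-Nd3 and mt-Nd4l. Gm28661 matched mt-Co2 over 681 bases without a difference, and Gm10925 (mt-Atp6), Gm28437 (mt-Co3), Gm10222 (mt-Nd4l) and Gm28439 (the first 876 bases of mt-Nd4) likewise had 0 differences. Gm28438 differed from mt-Nd3 at 1 base, T3C, and Gm29216 differed from the end of mt-Co1 at 6 bases, T1056A, C1057T, A1059G, A1060G, C1062A and A1066T, with positions counted from 1 at the 5′ end of the mitochondrial gene. The first 80 bases of mt-Co2 and of its copy show a stretch where a read from either would be the same, the mt-Co1 pair shows the edge of the block, and the mt-Nd4 stretch shows where the identical part stops; capitals mark bases that differ within a pair, and in mt-Nd4 the bases past the end of Gm28439.
mt-Co2 (MT:7013-7092, plus strand): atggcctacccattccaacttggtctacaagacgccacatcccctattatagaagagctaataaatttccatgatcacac
Gm28661 (chr1:24615486-24615565, minus strand): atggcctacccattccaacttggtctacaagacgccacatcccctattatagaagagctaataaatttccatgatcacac
mt-Co1 (MT:6381-6460, plus strand): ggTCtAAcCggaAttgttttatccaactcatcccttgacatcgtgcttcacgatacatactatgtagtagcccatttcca
Gm29216 (chr1:24616118-24616197, minus strand): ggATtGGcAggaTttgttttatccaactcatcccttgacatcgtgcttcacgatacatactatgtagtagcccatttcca
mt-Nd4 (MT:11003-11082, plus strand): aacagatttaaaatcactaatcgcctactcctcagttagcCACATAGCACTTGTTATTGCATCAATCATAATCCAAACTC

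Copies elsewhere were less alike. Gm13340, Gm13341 and Gm13339 on chromosome 2 shared runs with mt-Co1, mt-Co2 and mt-Nd2, and 2 copies of mt-Nd5, Gm11407 on chromosome 4 and Gm4076 on chromosome 13, matched it at 92.6% of 1053 and 95.3% of 953 aligned bases. Of the 50-base runs of these copies, 64 in Gm11407 and 73 in Gm4076 also occur in mt-Nd5. A pair of stretches is shown because Gm11407 returns in the results; capitals mark the bases that differ.
mt-Nd5 (MT:12489-12568, plus strand): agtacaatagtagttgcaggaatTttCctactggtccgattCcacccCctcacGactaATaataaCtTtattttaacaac
Gm11407 (chr4:80002331-80002410, plus strand): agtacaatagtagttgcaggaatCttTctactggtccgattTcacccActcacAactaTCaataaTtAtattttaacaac

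The genes also run into each other along the circle. Of the 13 messenger RNA genes, 12 lie on the plus strand and mt-Nd6 alone on the minus strand, and mt-Nd6 stood apart in base composition with 28.1% G and 5.97% C on its coding strand, where the other 12 had 5.88% to 16.1% G. mt-Nd4l and mt-Nd4 share 7 bases and mt-Atp8 and mt-Atp6 share 43, shown in capitals below, and mt-Nd5 and mt-Nd6 share 14 on opposite strands. Whether counting used the strand, and how reads in a shared stretch or with several matches were treated, is not stated in the sources used here; mt-Nd6 and RNA from the strand opposite it therefore cannot be told apart.
mt-Nd4l and mt-Nd4 (MT:10152-10188, plus strand): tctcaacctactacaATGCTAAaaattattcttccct
mt-Atp8 and mt-Atp6 (MT:7912-7984, plus strand): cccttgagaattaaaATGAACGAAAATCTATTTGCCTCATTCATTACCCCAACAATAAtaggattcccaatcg

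Libraries held 54263014 to 65519279 counts in the kidney disease group and 48748379 to 57962094 counts in the wild-type group. Col4a5 averaged 13.5 ± 2.97 CPM in kidney disease and 57.0 ± 4.93 CPM in wild type (SD, n = 7 and 8), with no overlap between the groups (log2 change -2.08, SE 0.11, edgeR adjusted p = 3.0e-09). None of the 10 ventricular cardiomyocyte markers was at 0 in every library; they summed to 71605 to 80909 CPM in kidney disease, against 71347 to 95143 CPM in wild type. With edgeR 0 of the 10 passed the threshold, against 1.28% of all genes, and 3 had an unadjusted p under 0.05, against 12.4% of all genes. These 3 were lower in kidney disease, Myh6 at -0.22, Actc1 at -0.30 and Ryr2 at -0.17 on the log2 scale. The median of the 10 was -0.01. With DESeq2 0 of the 10 passed, and limma with sample weights called Actc1 lower, where it called 2.34% of all genes, 1.08% lower. Here and below CPM values are counts scaled with TMM factors, which set libraries against each other by the bulk of their genes, and a log2 change is kidney disease minus wild type.

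Chromosome MT gave a smaller part of the counts in the diseased hearts. Its genes held 11.6 ± 0.803% of all counts in kidney disease (lowest 10.5, median 11.5, highest 12.8) and 12.9 ± 0.941% in wild type (lowest 11.7, median 13.1, highest 14.4; SD, n = 7 and 8). Per 100 counts outside the chromosome, there were 13.2 ± 1.03 mitochondrial counts in kidney disease and 14.9 ± 1.24 in wild type. All 7 kidney disease libraries lay below the wild-type mean and 4 lay below the lowest wild-type library, but the groups overlapped. The difference of -1.29 percentage points exceeded the SD of either group; it was -1.29 with the ribosomal RNA genes left out and -1.59 with the 10 most abundant nuclear genes left out. In a piece of tissue, fewer cells of a type or fewer mitochondria cannot be told apart from less RNA in each.

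**Figure D1:**
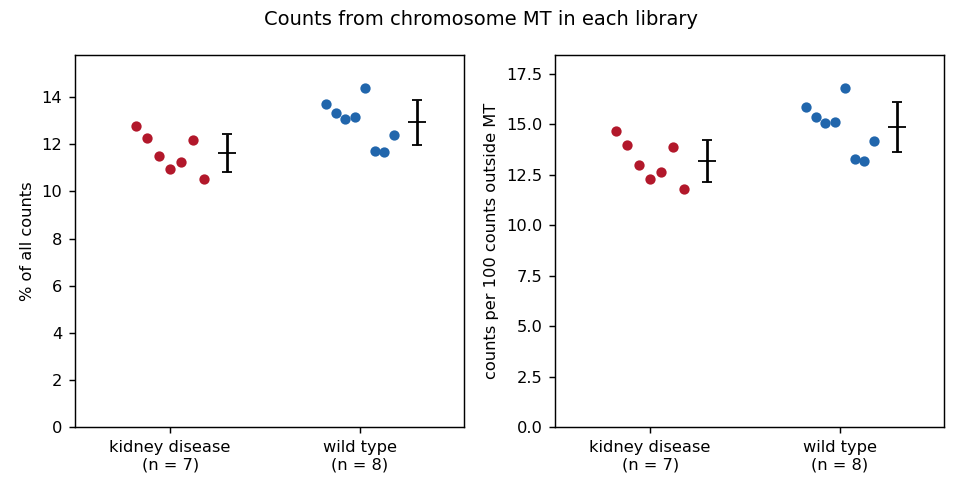
Counts from chromosome MT in each library, as a percentage of all counts (left) and per 100 counts outside the chromosome (right), for 7 kidney disease and 8 wild-type libraries; points are libraries, and the black mark and bar are the group mean ± SD. The kidney disease libraries ran from 10.5% to 12.8% and the wild-type libraries from 11.7% to 14.4%, so the groups overlapped.

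Nearly all of these counts came from messenger RNA genes. They held 99.7 ± 0.106% of the mitochondrial counts in kidney disease and 99.7 ± 0.165% in wild type. The ribosomal RNA genes held 0.268 ± 0.0964% in kidney disease and 0.287 ± 0.162% in wild type, and the transfer RNA genes 0.0364 ± 0.0125% in kidney disease and 0.0353 ± 0.00998% in wild type. None of these shares differed between the groups by more than its SD.

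Levels per length, in FPKM averaged over all 15 libraries, spread widely among genes cut from the same precursors. mt-Co1, the catalytic core of complex IV, was highest at 33078 ± 2758 FPKM (SD, n = 15). mt-Nd1 followed at 17826 ± 2030 FPKM and mt-Cytb, the cytochrome b of complex III, at 17459 ± 1528 FPKM, and these neighbours were not separated, since mt-Nd1 was above mt-Cytb in 10 of 15 libraries. Then came mt-Nd5 at 8688, mt-Nd2 at 6536 and mt-Nd4 at 6217 FPKM, of which mt-Nd2 and mt-Nd4 again changed places between libraries (10 of 15). mt-Nd6 stood at 1533, mt-Co2 at 1317, mt-Co3 at 1102 and mt-Atp6 at 800.1 FPKM, each above the next in at least 14 libraries. The lowest messenger RNA genes were mt-Nd4l at 618, mt-Atp8 at 415 and mt-Nd3 at 291 FPKM. The proline transfer RNA gene mt-Tp, at 599 ± 220.4 FPKM, lay among them and below mt-Nd4l in 7 of 15 libraries.

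The 5 messenger RNA genes with more than 90% of their runs in nuclear transcripts were all in the lower part of this order, at 291 to 1317 FPKM (median 800.1), where the other 8 had 415 to 33078 FPKM (median 7612). mt-Atp8 was as low as they were without any run in an annotated nuclear transcript, although the unannotated 233 bases between Gm28661 and Gm10925 sit where mt-Atp8 begins on chromosome MT. The part of the shared sequence in the order of levels was not tested.

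**Figure D2:**
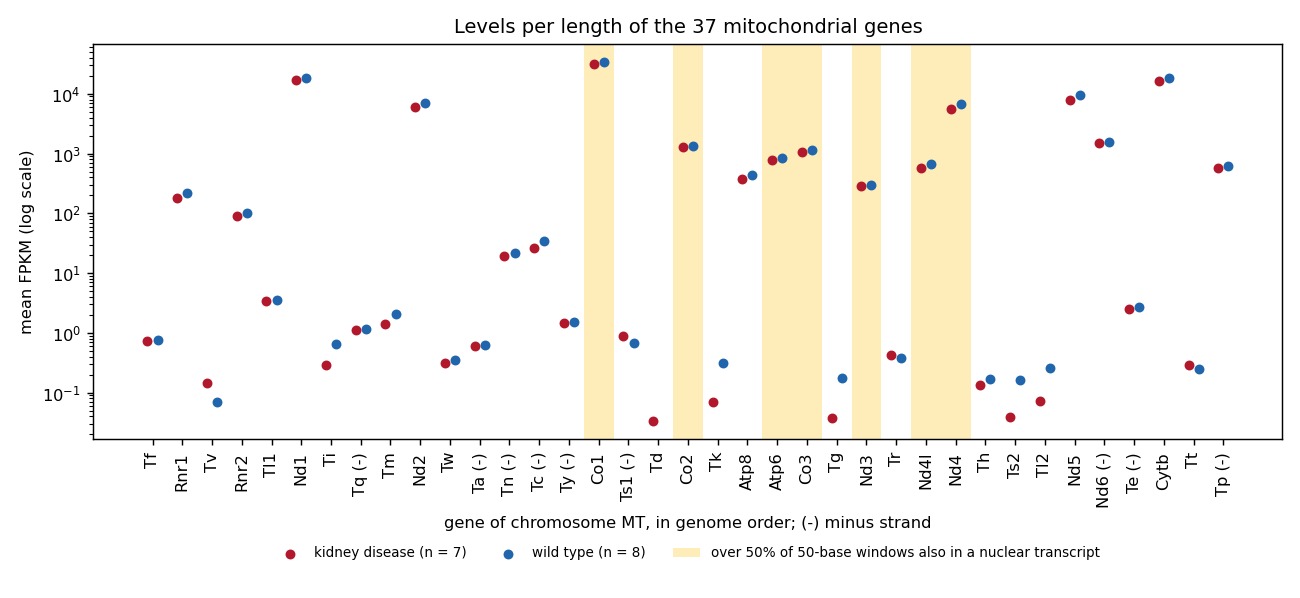
Mean FPKM (log scale) of the 37 genes in their order along chromosome MT, for kidney disease (red, n = 7) and wild type (blue, n = 8); a group mean of 0 is not drawn, and yellow marks genes with more than 50% of their 50-base runs in a nuclear transcript. mt-Co1 is highest at 33078 FPKM over all libraries, and most transfer RNA genes lie below the messenger RNA genes by orders of magnitude.

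Of the 37 genes, 20 had enough counts to be tested, namely all 13 messenger RNA genes, both ribosomal RNA genes and 5 transfer RNA genes. Only mt-Nd4 passed the adjusted threshold of 0.05, and it fell; among all 20718 genes tested, 1.28% passed, 0.473% lower and 0.811% higher in kidney disease. An unadjusted p under 0.05 was reached by 6 of the 20, against 12.4% of all genes. The log2 change was below 0 for 20 of 20, against 48.8% of all genes, with a median of -0.20 against 0.00 for all genes. The median was -0.19 for messenger RNA genes (range -0.35 to -0.08), -0.30 for ribosomal RNA genes and -0.16 for transfer RNA genes. These genes share precursors and a denominator, so they are not separate observations of 1 shift. For no member did the libraries of the groups stand fully apart (0 of 20, against 0.565% of all genes, 0.179% with kidney disease lower).

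The direction did not depend on the scaling to nuclear or total counts. With counts scaled to the full library total, the 20 genes had a median of -0.14 and 20 of 20 were below 0, although all genes together then had a median of 0.07; 2.39% of all genes passed (0.294% of all genes were called lower). Scaled to the total outside chromosome MT, the median was -0.16, again with 20 of 20 below 0, and 1.81% of all genes passed (0.338% called lower). Under both, mt-Nd4 was the only member called.

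**Figure D3:**
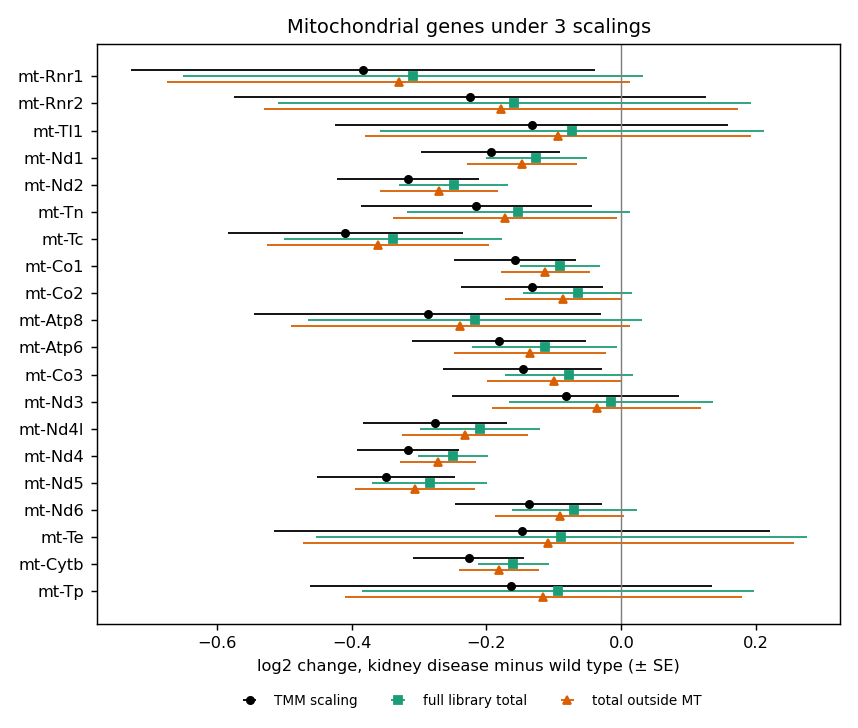
Log2 change (kidney disease minus wild type) with its SE for the 20 tested genes in genome order, under TMM scaling (circles), the full library total (squares) and the total outside chromosome MT (triangles); the grey line is 0. All 20 estimates lie below 0 under each scaling, with wide errors for the ribosomal and transfer RNA genes.

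Complex I, which passes electrons from NADH into the chain, has 7 mitochondrial subunits, and its genes had the 3 lowest estimates among the messenger RNA genes. mt-Nd4, a membrane subunit of its proton-pumping arm, had between 7000.1 and 8832 CPM in kidney disease (median 7375), against 8307 to 10789 CPM in wild type (median 9728). All 7 diseased hearts lay below the wild-type mean and 5 lay below every wild-type heart. The log2 change was -0.32 (SE 0.08, edgeR adjusted p = 0.0437), -0.25 (adjusted p = 0.0163) scaled to the full total and -0.27 (adjusted p = 0.0188) scaled to the total outside chromosome MT. Leaving out 1 library at a time kept it in 4 of 15 fits, those leaving out kidney disease 1, wild type 6, wild type 7 or wild type 8, with adjusted p from 0.0203 to 0.0954 over the 15 and log2 changes from -0.36 to -0.29.

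mt-Nd5, the outermost subunit of the same arm and the longest mitochondrial gene, had 10636 to 16994 CPM in kidney disease (median 13151) and 13823 to 20246 CPM in wild type (median 18148). All 7 diseased hearts lay below the wild-type mean and 4 lay below the lowest wild-type heart, but the change of -0.35 (SE 0.10, edgeR adjusted p = 0.106) missed the threshold. DESeq2 gave the same size of change, -0.35, with an adjusted p of 0.0174, where that tool called 3.74% of genes, 1.53% lower. mt-Nd2, another membrane subunit, had 4647 to 7342 CPM in kidney disease (median 5927) and 5903 to 8813 CPM in wild type (median 7763), a log2 change of -0.32 (SE 0.11, edgeR adjusted p = 0.173). Again all 7 diseased hearts were below the wild-type mean, and the groups overlapped widely.

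The remaining complex I genes overlapped more. mt-Nd1, which lies where the arms of the enzyme meet, had 13086 to 19213 CPM in kidney disease (median 15787) and 13854 to 21854 CPM in wild type (median 18363; log2 change -0.19, SE 0.10). The small subunit genes mt-Nd4l and mt-Nd3 averaged 166 ± 29.9 and 98.9 ± 28.4 CPM in kidney disease, and 200.9 ± 28.9 and 105 ± 25.2 CPM in wild type, with log2 changes of -0.28 (SE 0.11) and -0.08 (SE 0.17). mt-Nd6, the only messenger RNA of the minus strand, had 596 to 1042 CPM in kidney disease (median 746) and 692 to 1043 CPM in wild type (median 814), with a log2 change of -0.14 (SE 0.11). The adjusted p-values of these 4 genes ran from 0.26 (mt-Nd4l) to 0.91 (mt-Nd3). The highest mt-Nd6 value in kidney disease, 1042 CPM in library 6, belonged to the heart with the lowest mt-Nd5, 10636 CPM.

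**Figure D4:**
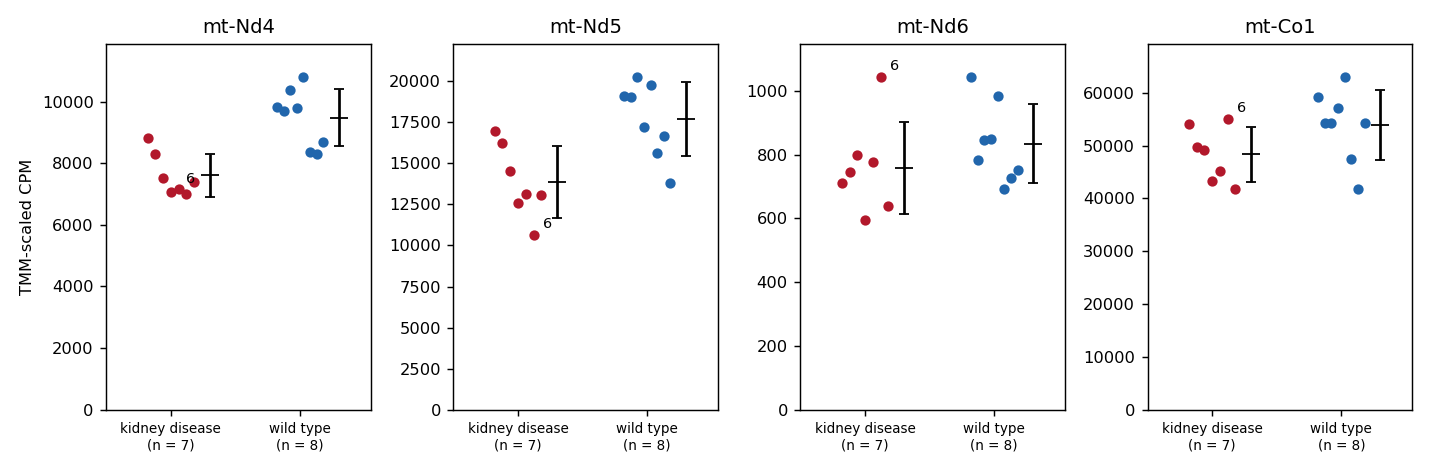
TMM-scaled CPM of mt-Nd4, mt-Nd5, mt-Nd6 and mt-Co1 in each of 7 kidney disease and 8 wild-type libraries; the black mark and bar are the mean ± SD, and 6 marks kidney disease library 6. Kidney disease library 6 is lowest of all libraries for mt-Nd4 and mt-Nd5 and highest of its group for mt-Nd6 and mt-Co1.

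None of the genes of complexes III, IV and V passed the test. mt-Cytb had 16295 to 21748 CPM in kidney disease (median 17931) and 18436 to 24663 CPM in wild type (median 21702), with 4 of 7 diseased hearts below every wild-type heart; its log2 change was -0.23 (SE 0.08, edgeR adjusted p = 0.224). mt-Co1, the most abundant of all, had 41776 to 55049 CPM in kidney disease (median 49241) and 41766 to 62954 CPM in wild type (median 54344), a log2 change of -0.16 (SE 0.09, edgeR adjusted p = 0.521). No diseased heart lay below the lowest wild-type heart for mt-Co1. The other complex IV genes, mt-Co2 and mt-Co3, averaged 862 ± 127 and 822 ± 131 CPM in kidney disease, and 944 ± 150 and 910.1 ± 171 CPM in wild type, with log2 changes of -0.13 (SE 0.11) and -0.15 (SE 0.12). For complex V, mt-Atp6, part of the proton channel, averaged 512 ± 92.6 CPM in kidney disease and 581 ± 119 CPM in wild type (log2 change -0.18, SE 0.13), and its overlapping neighbour mt-Atp8 averaged 76.5 ± 28.4 CPM in kidney disease and 93.3 ± 33.0 CPM in wild type (log2 change -0.29, SE 0.26).

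Set against each other rather than against the nuclear genes, the messenger RNA genes gave a lower mean share to complex I and a higher one to complex IV in the diseased hearts. Complex I genes held 39.2 ± 1.12% of the messenger RNA counts in kidney disease and 40.9 ± 1.29% in wild type, and complex IV genes 44.1 ± 1.51% in kidney disease and 42.2 ± 1.605% in wild type (SD, n = 7 and 8). All 7 diseased hearts lay below the wild-type mean for complex I and 0 of 7 below it for complex IV, and both pairs of groups overlapped. These shares are parts of the same total, so they are not separate results. The mean shares of single complex I genes differed in direction. Mean shares were lower in kidney disease for mt-Nd5 (12.3% against 13.4% in wild type), mt-Nd4, mt-Nd2 and mt-Nd4l. They were higher for mt-Nd1 (14.0% against 13.8%), mt-Nd6 and mt-Nd3, and kidney disease 6 had the highest share of all libraries for each. Without that library the mt-Nd1 mean was 13.70% (n = 6), against 13.76% in wild type, so its direction rested on kidney disease 6. Most of the complex IV share was mt-Co1, at 42.6 ± 1.43% in kidney disease and 40.8 ± 1.54% in wild type. Complex III held 16.2 ± 0.718% in kidney disease and 16.3 ± 0.521% in wild type. Per mt-Co1 count there were 0.158 ± 0.0155 mt-Nd4 counts in kidney disease and 0.177 ± 0.0128 in wild type, and 0.289 ± 0.0443 mt-Nd5 counts in kidney disease and 0.331 ± 0.0445 in wild type. When all libraries were scaled to the summed counts of the 13 messenger RNA genes, 0 of the 20 genes passed, 0 had an unadjusted p under 0.05 and 10 of 20 were below 0, with mt-Nd4 at -0.10 (edgeR adjusted p = 0.17), mt-Nd5 at -0.13 and mt-Co1 at 0.06. Under that scaling the median of all genes stood at 0.22 and 18.6% of them passed.

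The ribosomal RNA genes varied widely within both groups. mt-Rnr1, the small-subunit RNA of the mitochondrial ribosome, had 35.9 to 280.0 CPM in kidney disease (median 179) and 101 to 522 CPM in wild type (median 162). mt-Rnr2, the large-subunit RNA, had 66.6 to 206 CPM in kidney disease (median 156) and 67.3 to 324 CPM in wild type (median 93.9). Medians were higher in the diseased hearts for both, while the fitted changes were negative, -0.38 (SE 0.34, edgeR adjusted p = 0.733) and -0.22 (SE 0.35, adjusted p = 0.871). Without wild type 8 the change of mt-Rnr2 was -0.0071, and with other single libraries left out it ran from -0.34 to -0.05. The mean of mt-Rnr1 in wild type was 219 ± 136 CPM with wild type 1 and 175 ± 63.2 CPM without it, against 168 ± 73.1 CPM in kidney disease, and its log2 change without that library was -0.06 (adjusted p = 0.964).

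Both genes were set beside CT010467.1, a gene on chromosome 17 that is annotated as ribosomal RNA. It had 376 to 916 CPM in kidney disease (median 587), against 303 to 1835 CPM in wild type (median 720.2). Across the 15 libraries, log2 CPM of mt-Rnr2 and of CT010467.1 correlated with Pearson's r = 0.86 (permutation p = 1e-05, the smallest that 100000 permutations can give; adjusted over 2 relations 2e-05) and Spearman's rho = 0.84 (permutation p = 0.00019, adjusted 0.00038). Without wild type 5 and 8, the libraries farthest from the median of CT010467.1, r was 0.80, and it was 0.73 within kidney disease and 0.93 within wild type. For mt-Rnr1, r was 0.53 (permutation p = 0.042, adjusted 0.042) and rho 0.66 (permutation p = 0.0095, adjusted 0.0095), with r = 0.58 without the same 2 libraries, 0.56 within kidney disease and 0.55 within wild type. The part of ribosomal RNA removal in the levels of mt-Rnr1 and mt-Rnr2 was not tested.

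Transfer RNA genes held few counts, apart from mt-Tp. It had 484 to 3068 counts in kidney disease (median 2585) and 1059 to 3418 counts in wild type (median 2232.5), while 17 of the 22 had too few for a test, at 0 to 15 counts in a library and 1 to 99 counts over all libraries. Among these, mt-Tm, for methionine, had 2 to 12 counts in kidney disease and 4 to 15 counts in wild type, and 14 of the 17 were at 0 in at least 1 library. mt-Tp is the last annotated gene on the circle, on the minus strand, with no annotated gene between it and mt-Tf, for phenylalanine, which opens the plus strand and had 1 to 7 counts. Their sequences, shown because these neighbours of the control region differ so much in counts, are 67 and 68 bases long.
mt-Tp (MT:15356-15422, minus strand): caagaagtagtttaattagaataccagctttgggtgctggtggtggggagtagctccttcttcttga
mt-Tf (MT:1-68, plus strand): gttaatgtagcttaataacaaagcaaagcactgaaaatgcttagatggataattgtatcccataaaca

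The next in counts were mt-Tc, for cysteine, and mt-Tn, for asparagine, neighbours on the minus strand with 32 bases between them, the widest gap on the map apart from the stretch after mt-Tp. mt-Tc had medians of 112 counts in kidney disease and 114.5 in wild type, and mt-Tn had medians of 85 in kidney disease and 85.5 in wild type. mt-Tc averaged 1.73 ± 0.312 CPM in kidney disease and 2.30 ± 0.641 CPM in wild type, the lowest log2 change of any member at -0.41 (SE 0.17, edgeR adjusted p = 0.332). For mt-Tn the change was -0.22 (SE 0.17), for mt-Tp -0.16 (SE 0.30), for mt-Te, for glutamate, -0.15 (SE 0.37) and for mt-Tl1, for leucine, -0.13 (SE 0.29). At 2 to 25 counts a library, small differences in mt-Te and mt-Tl1 would not have been seen.

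For the 7 copies of the chromosome 1 block the counts per count of the mitochondrial gene were as follows. Gm28661 had 1.16 ± 0.0408 counts per mt-Co2 count in kidney disease and 1.14 ± 0.0371 in wild type, Gm10925 had 1.505 ± 0.0662 per mt-Atp6 count in kidney disease and 1.52 ± 0.0723 in wild type, and Gm28437 had 0.799 ± 0.0340 per mt-Co3 count in kidney disease and 0.794 ± 0.0510 in wild type. Gm10222, which is also identical, had 0.457 ± 0.0304 per mt-Nd4l count in kidney disease and 0.465 ± 0.0351 in wild type. For none of these did the ratio differ between the groups by more than its SD. Gm29216, whose match covers the end of mt-Co1, had 0.0279 ± 0.00158 counts per mt-Co1 count in kidney disease and 0.0278 ± 0.00145 in wild type, and Gm28439 had 0.0508 ± 0.00585 per mt-Nd4 count in kidney disease and 0.0514 ± 0.00592 in wild type. The ratio was less steady for Gm28438, which differs from mt-Nd3 at 1 base and had 0.654 ± 0.213 counts per mt-Nd3 count in kidney disease (0.263 to 0.858) and 0.672 ± 0.196 in wild type (0.349 to 0.930). Gm20594, the copy of part of mt-Rnr2, had 0 to 70 counts a library, where mt-Rnr2 had 3380 to 15695. By counts the largest copy was Gm13340, with 161594 on average in kidney disease and 158373 in wild type, followed among those not yet given by Gm13341 with 32999 in kidney disease and 30908 in wild type. Gm13340 had 0.0556 ± 0.00276 counts per mt-Co1 count in kidney disease and 0.0570 ± 0.00207 in wild type. All 15 nuclear genes together held 0.804 ± 0.0744% of all counts in kidney disease and 0.872 ± 0.102% in wild type.

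Gm28661 had a log2 change of -0.12 where mt-Co2 had -0.13, Gm10925 had -0.19 where mt-Atp6 had -0.18, and Gm28439 had -0.34 (SE 0.12, edgeR adjusted p = 0.216) where mt-Nd4 had -0.32. Gm11407, the mt-Nd5 copy shown above, had 56.0 to 87.5 CPM in kidney disease (median 72.0) and 75.2 to 111 CPM in wild type (median 93.7). It fell by 0.39 on the log2 scale (SE 0.09, edgeR adjusted p = 0.0361), beside -0.35 for mt-Nd5, and Gm4076 had -0.38 (SE 0.11, adjusted p = 0.0965). With single libraries left out, Gm11407 stayed called in 4 of 15 fits, those leaving out kidney disease 1, kidney disease 2, wild type 7 or wild type 8 (adjusted p 0.0194 to 0.0749). Whether reads counted for Gm11407 came from chromosome 4 or from mitochondrial RNA was not tested. Adding each copy's counts to its mitochondrial gene left mt-Nd4 at -0.32 (adjusted p = 0.047) as the only member called, with 1.28% of all genes called.

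**Figure D5:**
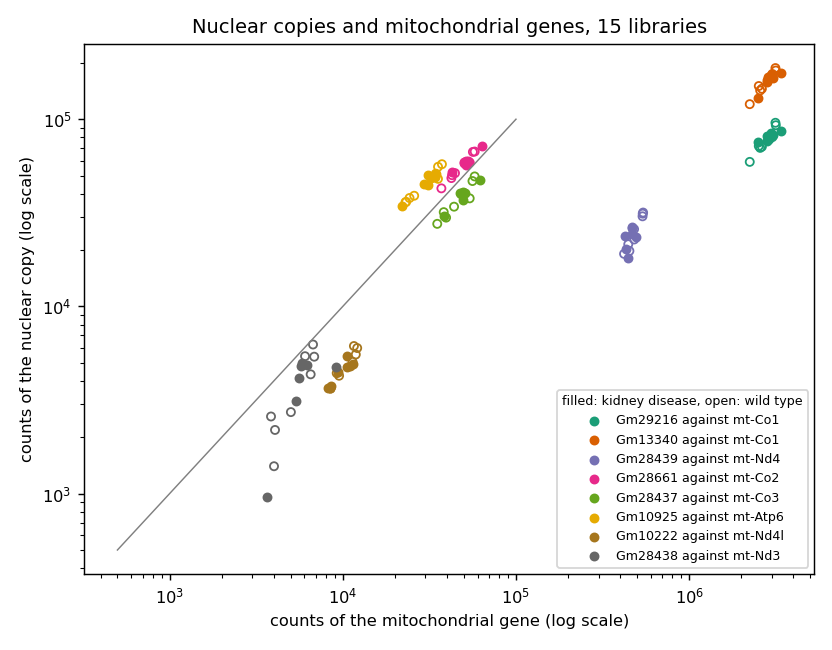
Counts of 8 nuclear copies against counts of the mitochondrial gene each resembles, in 15 libraries, on log scales; filled points are kidney disease, open points wild type, and the grey line marks equal counts. Gm28661 and Gm10925 lie above the line, while the copies of mt-Co1 and mt-Nd4 lie far below it.

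Nuclear genes that act on mitochondrial RNA did not pass the edgeR test in either direction with all libraries. With edgeR 0 of 30 genes for maintenance and transcription of mitochondrial DNA were called (median log2 change -0.02; 4 had an unadjusted p under 0.05), 0 of 27 for processing and decay of mitochondrial RNA (-0.03; 0) and 0 of 38 for transfer RNA synthetases and modification (-0.03; 9), where 12.4% of all genes had such a p. DESeq2 and limma with sample weights called none in the first 2 lists, while in the last DESeq2 called Vars2 lower, against 1.53% of all genes, and limma called Aars2, Gatb and Vars2 lower, against 1.08%. With edgeR and single libraries left out, Aars2 and Vars2 were called lower without wild type 7, and no gene of the 3 lists was called in the other 14 fits. Tfam, which packs mitochondrial DNA and starts its transcription, averaged 29.8 ± 2.78 CPM in kidney disease and 31.6 ± 3.92 CPM in wild type (log2 change -0.08, edgeR adjusted p = 0.743). The mitochondrial RNA polymerase Polrmt was at 48.0 ± 2.33 CPM in kidney disease and 52.2 ± 3.52 CPM in wild type (-0.12, adjusted p = 0.343). The initiation factor Tfb2m (-0.01), the elongation factor Tefm (0.03), and Lrpprc (-0.10) and its partner Slirp (0.11), which stabilise mitochondrial messenger RNA, did not pass either; Slirp rested on 13 to 47 counts a library.

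The nuclear subunits of the same enzymes had medians on the other side of 0, with 0 called by edgeR, DESeq2 or limma and 0 at an unadjusted p under 0.05. The medians were 0.05 over 36 complex I subunits, 0.07 over 9 of complex III, 0.07 over 12 of complex IV and 0.05 over 15 of complex V, and single subunits ran from -0.11 to 0.17. The difference between mitochondrial and nuclear subunits was not tested. Ttn, the giant spring protein of the sarcomere and the most abundant nuclear gene, was at -0.09 (SE 0.11, edgeR adjusted p = 0.824).

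Markers of some other cells were called higher in kidney disease. In the edgeR test 5 of 6 macrophage markers were called higher, with a summed 301 to 419 CPM in kidney disease, against 211 to 263 CPM in wild type. So were 5 of 7 fibroblast markers (971 to 1249 CPM in kidney disease, against 808 to 1041 CPM in wild type) and 4 of 4 B cell markers (14.7 to 25.2 CPM in kidney disease, against 6.38 to 13.5 CPM in wild type), against 0.811% of all genes called higher. With single libraries left out, 4 to 5 macrophage, 0 to 4 fibroblast and 2 to 4 B cell markers were called, with 0 fibroblast markers when kidney disease 1, 3 or 5 or wild type 5 was left out. With edgeR and DESeq2 0 of the 6 endothelial, 5 smooth muscle and pericyte, 4 atrial and 3 tested adipocyte markers passed (unadjusted p under 0.05 in 2, 1, 0 and 1 of them), nor any of the 5 erythroid markers, which all had an unadjusted p under 0.05 and a median log2 change of -0.56 (310.0 to 821 CPM in kidney disease, against 558 to 1072 CPM in wild type). In these lists no marker was at 0 in every library. The part of these cells in the lower mitochondrial counts was not tested.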

How the data were processed

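RNA-seq gene counts of 15 left ventricles were used. The submitters' processing notes name STAR 2.7.9a, featureCounts 2.0.3 from Subread, bcl2fastq and GRCm38, with no counting options. The deposited tables hold raw counts, CPM scaled to the library total, and FPKM, which is CPM per kilobase of exon, and in all 15 files both equalled values recomputed from the deposited counts. Counts were tested, and FPKM so recomputed gave levels per length. Genes passing edgeR's filterByExpr (minimum count 10), 20718 in all, were scaled by TMM and tested with edgeR 4.0.16 (R 4.3.3; quasi-likelihood F test, group as the only term), with Benjamini-Hochberg adjustment over all of them and a threshold of 0.05. P-values measure the spread between these animals. Counting error is small except for genes with few counts. The pipeline was tested on simulated data. No libraries were near-identical (chi-square per degree of freedom at least 8.44 in all 49 pairs within groups). All 37 genes had identical coordinates in GENCODE M21, and 55227 identifiers were named there. Alternatives used DESeq2 1.42.0, limma 3.58.1, other scalings and filters, thinning and single libraries left out.

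Named were all messenger and ribosomal RNA genes of chromosome MT; the 6 transfer RNA genes with the most counts, the 2 lowest and the 2 highest log2 changes, and any called; Tfam, Polrmt, Tfb2m, Tefm, Lrpprc, Slirp, Ttn and Col4a5; called members of pathway lists; and the 6 nuclear copies with the most counts. Gm11407, Gm4076, Gm13339, Gm28439, Gm28438, Gm10222, Gm20594, CT010467.1, Rn7sk, mt-Tf, Myh6, Actc1, Ryr2, Aars2, Gatb and Vars2 were chosen after their values were seen. The members, lists and rules were chosen with earlier results of these data known. Nuclear copies were searched in annotated transcripts, not in the genome.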

Additional observations from a re-analysis of the deposited data

Results flagged for a closer look

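Among 96 groups of values from the mitochondrial genes, 6 held a library set apart from the rest of its group, where chance gives about 1 in 20, or 4.8 groups.

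Kidney disease 6 stood apart in 4 related measures of balance between the messenger RNA genes. Its mt-Nd5 made up 8.77% of the mitochondrial messenger RNA counts, where the other kidney disease libraries had 12.4% to 13.4%, and its mt-Nd1 made up 15.8%, where the others had 13.1% to 14.1%. It had 0.193 mt-Nd5 counts per mt-Co1 count, where the others had 0.291 to 0.325, and 0.0980 mt-Nd6 counts per mt-Nd5 count, where the others had 0.0419 to 0.0590. Without it, the kidney disease mean of mt-Nd5 per mt-Co1 was 0.305 ± 0.0144 (SD, n = 6), against 0.331 ± 0.0445 in wild type (n = 8), and that of mt-Nd6 per mt-Nd5 was 0.0497 ± 0.00623, against 0.0474 ± 0.00545 in wild type. The same library had the most Rn7sk, a small nuclear RNA, at 8431 CPM, where the highest wild-type library had 5604 CPM. Rn7sk averaged 5438 ± 1459 CPM in kidney disease, with library 6 included, and 4539 ± 783 CPM in wild type.

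Kidney disease 7 had the lowest share of complex V genes, 0.390%, where the others of its group had 0.503% to 0.578%; the group mean was 0.514 ± 0.0605% with it and 0.535 ± 0.0284% without it, against 0.506 ± 0.0660% in wild type. Wild type 1 had 522 CPM of mt-Rnr1, where the other wild-type libraries had 101 to 269 CPM.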

How the results depend on the processing

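The count of mitochondrial genes called was 1 in the main test, 2 with DESeq2 (mt-Nd4 and mt-Nd5), 0 without a filter on low counts and 0 to 2 with single libraries left out. mt-Nd4 was called in 15 of 28 alternatives, with adjusted p from 0.0013 to 0.14, the highest without the filter. The scaling to the 13 messenger RNA genes is not among these 28. It gave mt-Nd4 a log2 change of -0.10 (edgeR adjusted p = 0.17) and called no member. mt-Nd5 was called in 3 of 28, including the fit without wild type 8 (adjusted p = 0.048). The median log2 change was -0.20 with all libraries. With single libraries left out, it ran from -0.26 (without kidney disease 2) to -0.12 (without kidney disease 7, with 18 of 20 below 0). In the same fits the mitochondrial percentage difference ran from -1.48 to -1.08. The differences in messenger, ribosomal and transfer RNA shares ran from -0.02 to 0.04, -0.04 to 0.02 and -0.0010 to 0.0053 percentage points. The transfer RNA difference was 0.0187 with counts per kilobase and 0.0011 otherwise. The sign turned for mt-Tl1 (-0.23 to 0.013, positive without wild type 4), mt-Te (-0.34 to 0.049, without kidney disease 4), mt-Nd3 (-0.21 to 0.0068) and mt-Tp (-0.27 to 0.014, both without kidney disease 7); the cause was not tested. Calls over all genes numbered 266, against 97 to 388 with single libraries left out, 496 with the full library total and 640 with DESeq2. Whether the replicate numbers pair the animals is not stated in the sources used here, and the counts did not settle it. Correlations of same-numbered deviations ran from -0.26 to 0.49, and 3 of 7 pairs matched best with their own number. With the number as a replicate block and wild type 8, which has no partner, left out, 116 genes were called, mt-Nd4 had -0.33 (adjusted p = 0.066), mt-Nd5 -0.40 (adjusted p = 0.040) and mt-Rnr2 0.16. Leaving out wild type 8 with no replicate block gave 260 genes, mt-Nd4 and mt-Nd5 among them, and -0.0071 for mt-Rnr2. Few counts limited what could be seen for the transfer RNA genes other than mt-Tp, mt-Tc and mt-Tn. Why these genes held few counts was not tested.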
